A study of Rattus norvegicus with 6 samples.

Results

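Collagen chains other than Col2a1 were examined in rat primary chondrocytes. The members were chosen by name, as every gene in the deposited table whose symbol consists of Col, a type number, the letter a and a chain number, with Col2a1 left out, and 41 of the 18420 genes met this rule. The rule used no measured value. The 6 libraries were poly(A) RNA libraries of wild-type chondrocytes from male Sprague-Dawley rats, taken from knee and hip cartilage and used at the third passage. The TNF-α group (n = 3) received 10 ng/mL of TNF-α, an inflammatory cytokine, for 6 h, and the TNF-α+NFL group (n = 3) received the same and then Nanofat lysate (NFL), the cleared freeze–thaw lysate of stromal vascular cells from rat abdominal fat, for another 24 h. Both groups therefore carry the TNF-α exposure. The treatment times put the groups at 6 h and 30 h, and the methods state no separate harvest time. NFL and the time since TNF-α was added therefore cannot be told apart. The comparison asked which genes respond when NFL follows TNF-α. Higher and lower refer to the groups as the deposited labels name them. The column headings of a supplementary table of the study assign these groups the other way round, which of the assignments is right was not settled here, and with the groups exchanged the sign of every difference below would turn. The study calls its replicates independent and biological, but neither it nor the labels says that they came from separate animals, and cells of the same passage were divided among the groups. The p-values measure the spread between these libraries.

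Collagens are trimers of alpha chains wound into a helix of Gly-X-Y repeats, and each type is built from its own set of chains. Fibrillar types I, II, III, V and XI form the fibrils of connective tissue, with types V and XI starting and sizing the fibril, and fibril-associated types IX, XII, XIV and XVI sit on its surface. Type IV forms the mesh of basement membranes, types VIII and X form short-chain networks, type VI forms beaded filaments, which surround chondrocytes in the pericellular matrix, and types XV and XVIII carry sugar chains near basement membranes. Cartilage is known for types II, IX and XI, and chondrocytes grown in monolayer are known to lose type II and to gain type I.

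Among the chains, the type IV genes lie in head-to-head pairs, in which 2 genes start close together and run in opposite directions. In the RefSeq windows of the assembly GRCr8, the starts of Col4a1 and Col4a2 on chromosome 16 were separated by 76 bases. Between Col4a3 and Col4a4 on chromosome 9 there were 412 bases, and between Col4a5 and Col4a6 on chromosome X there were 1414. The stretch between Col4a1 and Col4a2 is shown because both chains varied together, and the bases before Col4a3 and Col11a1 are shown because these chains had the smallest p-values of all chains between the groups. Each sequence is given 5′ to 3′ on the plus strand, which is the strand of Col4a1, Col4a3 and Col11a1, at chr16:84885521-84885596, chr9:91323740-91323989 and chr2:204508886-204509135. Capitals mark GGGCGG (the GC box) and CCAAT (the CCAAT box) read on either strand, so that they also appear as CCGCCC and ATTGG.
Col4a1-Col4a2 interval: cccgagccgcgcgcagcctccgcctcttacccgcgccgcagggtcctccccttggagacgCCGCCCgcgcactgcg
Col4a3 upstream: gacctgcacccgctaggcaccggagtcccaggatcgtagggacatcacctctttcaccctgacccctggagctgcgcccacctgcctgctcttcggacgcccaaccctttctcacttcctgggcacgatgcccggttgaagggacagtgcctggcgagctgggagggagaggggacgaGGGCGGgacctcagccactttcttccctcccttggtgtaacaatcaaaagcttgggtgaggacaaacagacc
Col11a1 upstream: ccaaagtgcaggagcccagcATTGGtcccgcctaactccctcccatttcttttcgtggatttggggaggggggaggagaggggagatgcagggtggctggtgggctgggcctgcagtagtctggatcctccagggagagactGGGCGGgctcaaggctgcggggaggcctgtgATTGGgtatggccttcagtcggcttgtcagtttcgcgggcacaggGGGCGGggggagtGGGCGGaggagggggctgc

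The interval between Col4a1 and Col4a2 held 1 GC box and 78.9% G and C, the bases before Col4a3 held 1 GC box, and those before Col11a1 held 3 GC boxes and 2 CCAAT boxes. RefSeq promoter windows were found for 33 of the 41 chains, some with more than 1 start, and the 250 bases before each start were searched. GGGCGG was present in 57.1% of the 35 collagen windows and in 30.5% of all 33469 windows of the assembly. CCAAT was present in 28.6% and 34.0%, and the TATA box, as TATAAA, in 11.4% and 12.9%. The median share of G and C was 51.2% over all windows, and that of the collagen windows was not computed. The windows of Col4a1 and Col4a2 overlap, so the GC box between these genes is counted in both. Both strands were read, and matches were counted whether or not they overlapped another motif. These matches describe letters in a window and are not measured binding sites.

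The libraries held from 19344893 to 19725135 estimated counts, and collagen chains accounted for 354802 to 403522 of them. TNF-α replicate 1 stood apart from the other replicates of its group in these genes. It had the highest TPM (the deposited level scaled to transcript length and library size) of the TNF-α libraries for 26 of the 30 chains that could be tested. The share of all tested genes with their highest TNF-α level in this library was not computed. The pattern is therefore not shown to be particular to the chains. Without this library 930 genes in all passed an adjusted p of 0.05 in edgeR's test, against 81 with all 6 libraries. Over these 30 chains, the median deviation from the chain mean in log2 normalised counts was 0.073, -0.12 and -0.10 for TNF-α replicates 1 to 3 and 0.039, 0.096 and 0.050 for TNF-α+NFL replicates 1 to 3. Values without that library, or the range over the 6 fits with 1 library left out, are given below for chains and ratios that moved with a single library. Markers of other cell types did not pass an adjusted p of 0.05 in edgeR's test in any list, with 7 fibroblast, 2 osteoblast, 2 adipocyte, 1 macrophage and blood and 0 endothelial markers tested. Their summed levels ranged from 34.4 to 36.95 TPM (TNF-α) and from 36.2 to 40.7 TPM (TNF-α+NFL) for the adipocyte list, mostly from Fabp4 with Lpl at 3.78 to 6.62 and Adipoq at most 0.27, from 36.7 to 44.9 and from 33.95 to 43.3 TPM for the macrophage and blood list, nearly all from Cd68 with Ptprc at most 0.16, and from 6.28 to 7.30 and from 6.53 to 7.17 TPM for the osteoblast list with Dmp1 at 0. The endothelial list summed to at most 0.38 TPM with Kdr at 0. In the macrophage and blood list, Csf1r was at 1.12 TPM in TNF-α replicate 1 and at most 0.18 TPM in any other library. Ptprc was also highest in TNF-α replicate 1, and neither gene was tested.

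**Figure D1:**
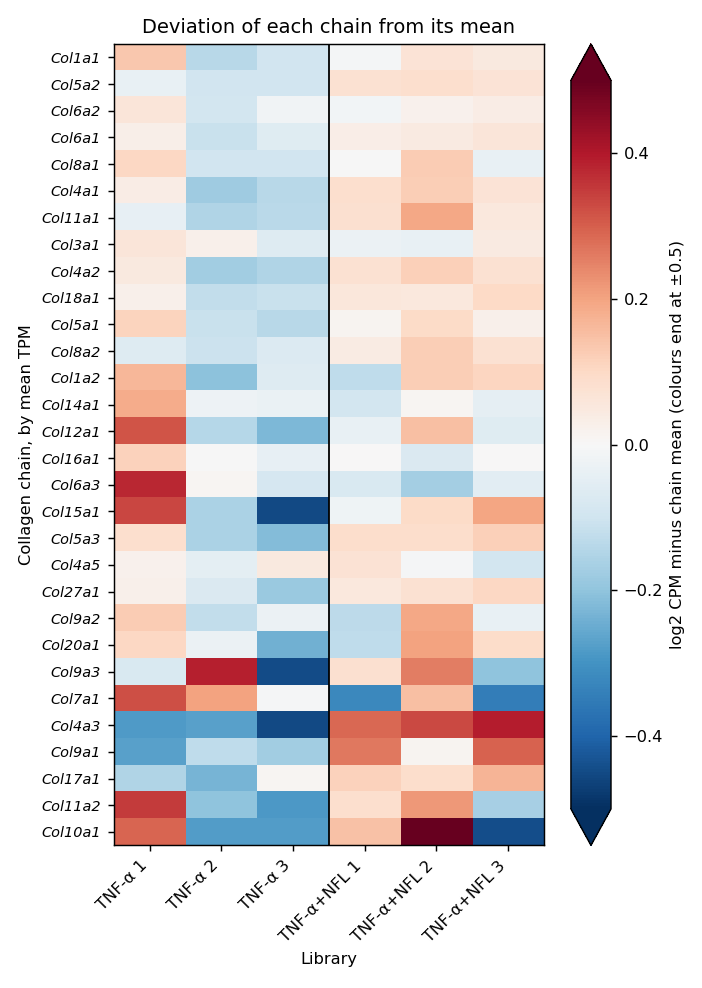
Deviation of each tested collagen chain from its own mean over the 6 libraries, in log2 normalised counts (colour), by library (columns) and chain (rows, highest mean TPM at the top). Most chains are below their mean in TNF-α replicates 2 and 3, with median deviations of -0.12 and -0.10, and at or above it in TNF-α replicate 1 and in the TNF-α+NFL libraries.

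The cultured cells had a type I rather than a type II collagen profile. Col1a1 (Entrez gene 29393), the main chain of type I collagen, was at 1223 ± 154 TPM with TNF-α (SD, n = 3) and 1308 ± 41.1 TPM with TNF-α+NFL (SD, n = 3), whereas Col2a1, the chain of cartilage type II collagen, was at 7.72 ± 0.551 TPM with TNF-α (SD, n = 3) and 9.23 ± 0.475 TPM with TNF-α+NFL (SD, n = 3). The ratio of Col1a1 to Col2a1 in TPM was 172, 158 and 145 in TNF-α replicates 1 to 3 and 146, 142 and 138 in TNF-α+NFL replicates 1 to 3. In every library Col1a1 was thus more than 137 times as high as Col2a1 per length, and the ranges of the groups overlapped. The other chondrocyte markers Acan, Sox9, Comp and Hapln1 lay between 3.93 and 9.81 TPM in every library, Matn1 and Cnmd were at most 0.27 TPM, and Prg4, the lubricin gene of superficial chondrocytes, lay between 948 and 1329 TPM. The summed level of the 11 chondrocyte markers, nearly all from Prg4, was 982 to 1368 TPM in the TNF-α and 1037 to 1204 TPM in the TNF-α+NFL group. Its maximum was in TNF-α replicate 1. The summed level of the 7 fibroblast markers, mostly from S100a4 and Thy1, was 6636 to 7014 and 6974 to 7008 TPM. The cartilage chains of type IX and type XI differed widely in level. Col9a1, Col9a2 and Col9a3 averaged 0.895, 2.60 and 1.42 TPM over the 6 libraries and Col11a2 averaged 0.685, whereas Col11a1 averaged 459.95. Col10a1, the chain of hypertrophic cartilage, averaged 0.138 TPM, from 6 to 14 estimated counts a library. In bulk RNA, fewer cells of a type and less RNA per cell cannot be told apart.

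Of the 41 chains, 13 had a mean over 100 TPM, 13 had a mean from 1 to 100 TPM and 15 had a mean under 1 TPM. The 10 highest chains made up 88.99% to 89.8% of the collagen TPM in each library. Col1a1 was first, and it was above Col5a2 in 6 of 6 libraries although their ranges over the libraries overlapped. Col5a2, Col6a2 and Col6a1 followed in ranges that did not overlap one another, and Col6a1 was above Col8a1 in 6 of 6 libraries with overlapping ranges. Col8a1 stood above Col4a1 in 4 of 6 libraries. Col3a1, a fibrillar chain of elastic tissues, stood above Col4a2 in 3 of 6, and here the order turned with the group. It averaged 409 TPM against 380.4 TPM of Col4a2 in the TNF-α libraries and was the higher in all 3, and it averaged 414 against 439.9 TPM in the TNF-α+NFL libraries and was the lower in all 3. Below the 10 highest, the order ran from Col5a1 at 215 TPM through Col8a2 at 185, Col1a2 at 141, Col14a1 at 92.1 and Col12a1 at 31.3 TPM. The ranges of Col14a1 and Col12a1 were the widest apart of these, with 87.0 TPM as the lowest value of the one and 39.1 TPM as the highest of the other.

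**Figure D2:**
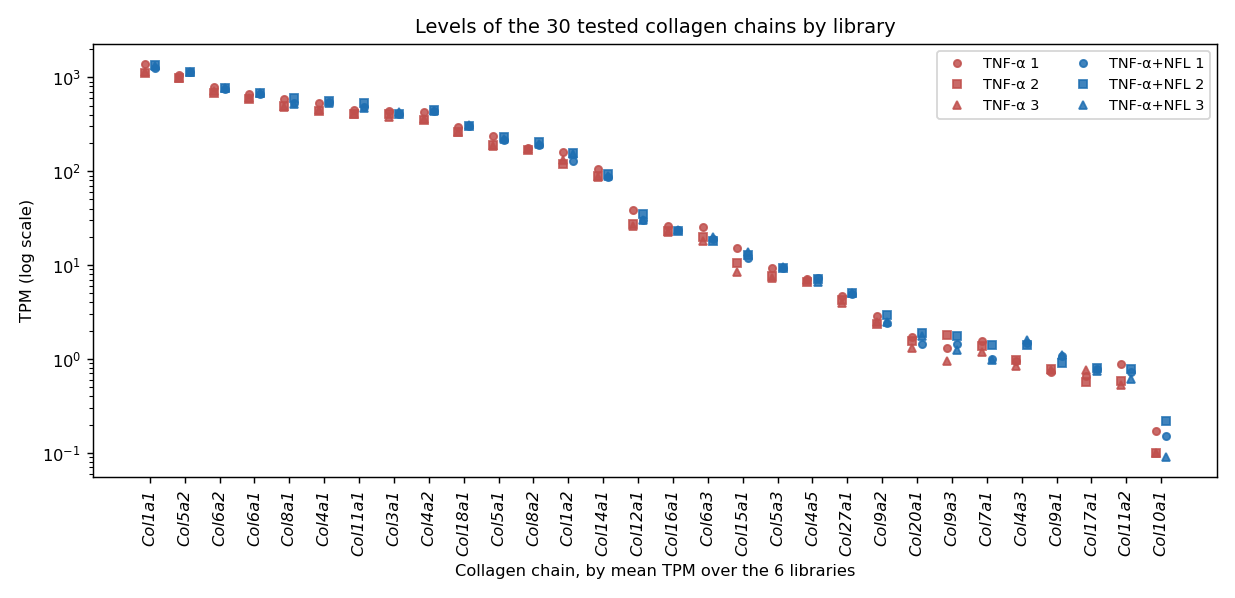
TPM (log scale) of the 30 tested collagen chains in each of the 6 libraries, ordered by mean. Red points are TNF-α and blue points TNF-α+NFL libraries, with a marker shape for each replicate number, and the means run from 1265 TPM for Col1a1 to 0.138 TPM for Col10a1.

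Between the groups, 30 chains had enough counts to be tested, and none passed an adjusted p of 0.05 in edgeR's quasi-likelihood test, which is fitted to the counts of all 13250 tested genes. At this threshold 0.611% of all tested genes were called. At an unadjusted p under 0.05 in the same test there were 10 chains higher and 1 lower in the TNF-α+NFL group, where 5.66% and 5.45% of all tested genes were. In 12 chains all 3 TNF-α+NFL libraries lay above all 3 TNF-α libraries in normalised counts, against 8.66% of all tested genes, and in 0 chains they lay below, against 8.17% (16.8% in both directions). The fold change was above 1 for 24 chains, against 48.2% of all tested genes, and the median log2 fold change was 0.090 for the chains and -0.0035 for all tested genes. The chains vary together between libraries, so these shares are a description and not a test of the family. With other tools, the DESeq2 Wald test called Col11a1, Col5a2, Col8a2, Col4a1 and Col4a2, and limma-voom called Col11a1, each higher in the TNF-α+NFL group, where these tools called 1.12% and 0.634% of all tested genes. DESeq2 gave no adjusted p to some chains, among them Col4a3, Col5a3, Col27a1 and Col7a1, so these could not be called. Its share is nevertheless of all 13250 tested genes. Limma on log2(TPM + 1) and log2(TPM + 0.1) called 0 chains and 0.242% of all tested genes each, with 9 and 8 chains among 1387 and 1380 genes at an unadjusted p under 0.05.

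Without TNF-α replicate 1, 12 of 30 chains passed an adjusted p of 0.05 in edgeR's test, all higher in the TNF-α+NFL group, where 6.94% of all tested genes were called. These were Col1a1, Col4a1, Col4a2, Col4a3, Col5a1, Col5a2, Col5a3, Col6a1, Col8a2, Col11a1, Col15a1 and Col18a1, and the median log2 fold change of the chains was then 0.17. Their log2 fold changes ran from 0.13 for Col6a1 to 0.72 for Col4a3, and their adjusted p-values in edgeR's test from 1.5e-05 for Col4a2 to 0.039 for Col15a1. TNF-α replicate 1 was singled out from the values of these same chains, so this fit describes how far the calls depend on it. With any other library left out, 0 of 30 chains and 0.0373% to 0.306% of all tested genes passed in edgeR's test, while at an unadjusted p under 0.05 there were 7 to 10 chains, of 1026 to 1253 genes in all. The chains are long, with a median transcript length of 6.03 kb implied by the deposited counts and FPKM values against 2.52 kb for all tested genes. When each library's trend with transcript length was removed, the median of the chains was 0.058, and Col11a1, Col4a1, Col4a2, Col4a3 and Col8a2 passed, where 1.73% of all tested genes did.

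**Figure D3:**
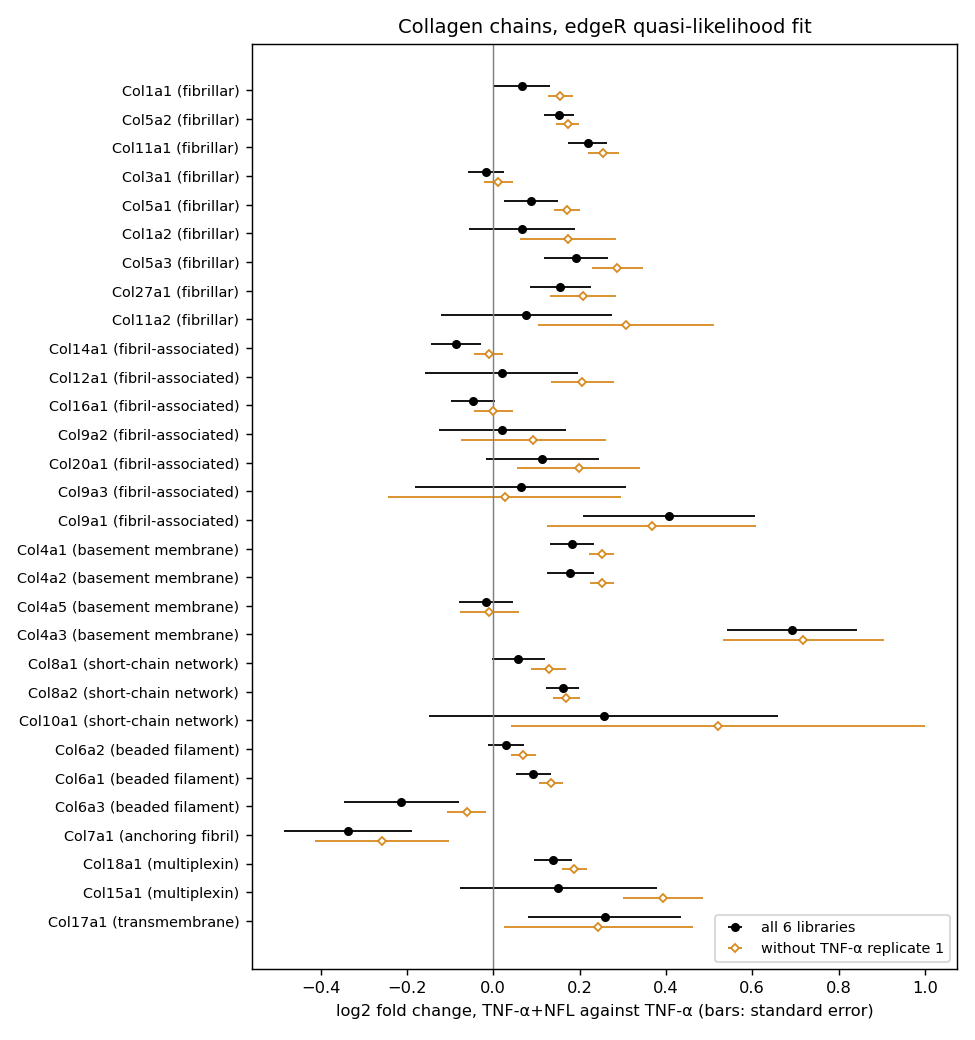
Log2 fold change of each tested collagen chain between the TNF-α+NFL and TNF-α groups, with its standard error, from edgeR's quasi-likelihood fit, grouped by class. Black points use all 6 libraries, where 0 of 30 chains passed an adjusted p of 0.05, and open orange points leave out TNF-α replicate 1, where 12 did.

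Among the fibrillar chains, Col11a1 and Col5a2 had the smallest adjusted p, and the chains of types I and III, the bulk of most fibrils, had adjusted p-values of 0.80 to 0.94 in edgeR's test. Of the 9 fibrillar chains tested, 8 had a fold change above 1 and 0 passed. Col11a1 (Entrez gene 25654), a type XI chain of the fibril core, had the smallest p of all chains, at 449, 404 and 406 TPM in TNF-α replicates 1 to 3 and 489.5, 533 and 478 TPM in TNF-α+NFL replicates 1 to 3. The 3 TNF-α+NFL libraries were all above the TNF-α libraries. Its log2 fold change was 0.22 (standard error 0.045, edgeR adjusted p = 0.052), a fitted difference of 16.4%, and it was 0.25 (adjusted p = 0.00055 in edgeR's test) without TNF-α replicate 1. With any other library left out, it was 0.18 to 0.25 (adjusted p of 0.13 to 0.32 in edgeR's test). Col11a1 passed an adjusted p of 0.05 in 7 of 15 alternative fits.

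Col5a2 (Entrez gene 85250), the α2 chain of type V collagen, which starts fibrils together with Col5a1, was at 1055, 982 and 973 TPM in TNF-α replicates 1 to 3 and 1138, 1154 and 1130.1 TPM in TNF-α+NFL replicates 1 to 3. These groups did not overlap, and the TNF-α+NFL libraries lay close together. The log2 fold change was 0.15 (standard error 0.035, edgeR adjusted p = 0.080), a fitted difference of 11.1%. Its partner Col5a1 was at 239, 193 and 186 TPM in the TNF-α libraries and 215, 234 and 219.7 TPM in the TNF-α+NFL libraries, where TNF-α replicate 1 was the highest of all and the groups overlapped. The log2 fold change of Col5a1 was 0.087 (standard error 0.062, edgeR adjusted p = 0.67), 0.17 (adjusted p = 0.0013 in edgeR's test) without that library, 0.058 when TNF-α replicate 2 was omitted and 0.044 when TNF-α replicate 3 was. Col5a3, a minor type V chain, was at 9.24, 7.59 and 7.24 TPM in the TNF-α libraries and 9.23, 9.30 and 9.44 TPM in the TNF-α+NFL libraries. Its log2 fold change was 0.19 (standard error 0.074, edgeR adjusted p = 0.34), or 0.29 (adjusted p = 0.0048 in edgeR's test) without TNF-α replicate 1. With any other library left out, Col5a3 was at 0.13 to 0.20 (adjusted p of 0.61 to 0.71 in edgeR's test). Col27a1, a fibrillar chain of developing cartilage, was at 4.71, 4.29 and 3.98 TPM in the TNF-α libraries and 4.90, 5 and 5.02 TPM in the TNF-α+NFL libraries, with a log2 fold change of 0.15 (standard error 0.071, edgeR adjusted p = 0.45). The groups of both did not overlap in normalised counts, although in TPM those of Col5a3 just overlapped, since TNF-α replicate 1 had 9.24 and the lowest TNF-α+NFL library 9.23.

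The type I chain Col1a1 was at 1401, 1123 and 1146 TPM in TNF-α replicates 1 to 3 and 1264, 1346 and 1314 TPM in TNF-α+NFL replicates 1 to 3. TNF-α replicate 1 was the highest library and TNF-α replicates 2 and 3 the lowest, so the groups overlapped, and the log2 fold change was 0.065 (standard error 0.067, edgeR adjusted p = 0.80). Without TNF-α replicate 1 it was 0.15 (adjusted p = 0.0019 in edgeR's test), whereas it was 0.017 when TNF-α replicate 2 was omitted and 0.035 when TNF-α replicate 3 was. Col1a2, the partner chain, was at 159, 119 and 130.2 TPM in the TNF-α libraries and 129, 155 and 152 TPM in the TNF-α+NFL libraries, with a log2 fold change of 0.066 (standard error 0.12, edgeR adjusted p = 0.91), which was -0.013 when TNF-α replicate 2 was omitted and 0.17 when TNF-α replicate 1 was. Its estimated counts were fractional, as happens where reads are shared between genes, so its level is uncertain. Col3a1 was at 435, 411 and 382 TPM in the TNF-α libraries and 406, 408 and 427 TPM in the TNF-α+NFL libraries, and its log2 fold change of -0.017 (standard error 0.042, edgeR adjusted p = 0.94) was the nearest to 0 among the 10 highest chains and was -0.050 when TNF-α replicate 3 was omitted and 0.011 when TNF-α replicate 1 was. Col11a2, the partner of Col11a1, had from 48.2 to 73.4 estimated counts a library, also fractional, and a log2 fold change of 0.076 (standard error 0.20, edgeR adjusted p = 0.94), which was -0.043 when TNF-α replicate 3 was omitted and 0.31 when TNF-α replicate 1 was.

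The type IV chains gave both the largest fold change and the tightest pair. Of the 4 tested, 3 had a fold change above 1 and 0 passed an adjusted p of 0.05. Col4a1 (Entrez gene 290905), a chain of the common basement membrane trimer, was at 529, 441 and 449 TPM in TNF-α replicates 1 to 3 and 544, 564 and 537 TPM in TNF-α+NFL replicates 1 to 3. Col4a2, its partner, was at 428, 355 and 358 TPM in TNF-α replicates 1 to 3 and 435, 452 and 433 TPM in TNF-α+NFL replicates 1 to 3. In both chains TNF-α replicate 1 lay just below the TNF-α+NFL libraries and the other TNF-α libraries lay well below, so the groups did not overlap. The log2 fold change was 0.18 (standard error 0.051, edgeR adjusted p = 0.18) for Col4a1 and 0.18 (standard error 0.054, edgeR adjusted p = 0.22) for Col4a2. Without TNF-α replicate 1 the values were 0.25 and 0.25, with an adjusted p of 1.6e-05 and 1.5e-05 in edgeR's test, the smallest of all chains in that fit. With any other library left out, Col4a1 was at 0.14 to 0.20 (adjusted p of 0.36 to 0.54 in edgeR's test). Col4a2 was then at 0.14 to 0.19 (adjusted p of 0.42 to 0.58 in edgeR's test).

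The ratio of Col4a1 to Col4a2 in TPM was 1.23, 1.24 and 1.25 in TNF-α replicates 1 to 3 and 1.25, 1.25 and 1.24 in TNF-α+NFL replicates 1 to 3. Its coefficient of variation over the 6 libraries was 0.603%, although that of each chain was 10.2% and 10.3%, and counting error alone gives a ratio of these counts a coefficient of variation of 0.821%. The ratio of these 2 genes thus showed no spread beyond counting error while both levels varied. Whether their starts, 76 bases apart and printed above, have a part in this was not tested. The other head-to-head pairs could not be compared, since Col4a4 and Col4a6 had too few counts. The ratio differed between the groups by 0.0032 on the log2 scale (exact permutation test, two-sided, p = 0.80).

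**Figure D4:**
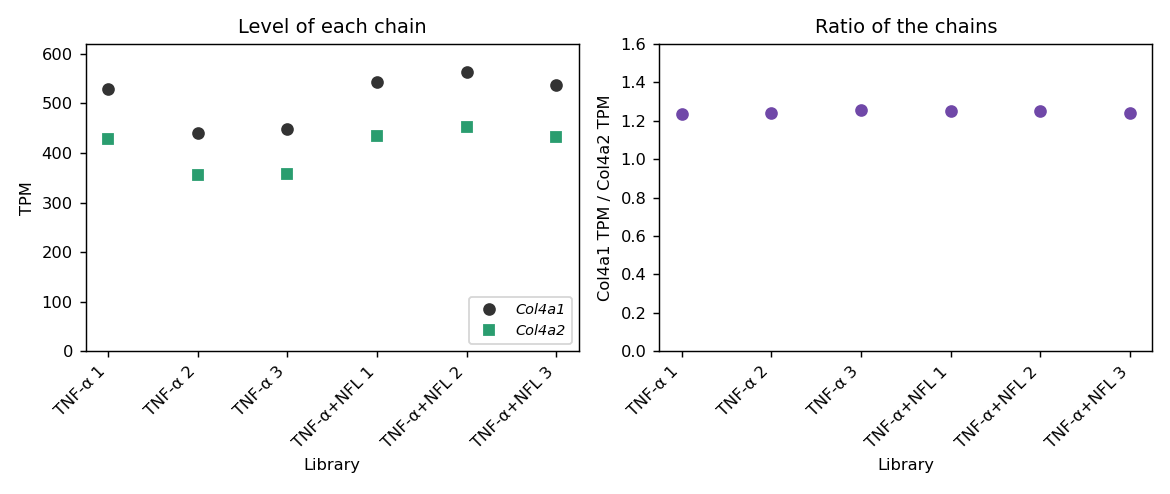
TPM of Col4a1 and Col4a2 in each library (left) and the ratio of the TPM values (right), both axes from 0. The levels run from 441 to 564 TPM for Col4a1 and from 355 to 452 TPM for Col4a2, while the ratio stays between 1.23 and 1.25.

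Col4a3, a chain of the specialised basement membrane of kidney and lung, had the largest log2 fold change of the tested chains, 0.69 (standard error 0.15, edgeR adjusted p = 0.065), from low counts. It had 48.3, 50.4 and 43.7 estimated counts in TNF-α replicates 1 to 3 and 74.2, 76.4 and 79.5 in TNF-α+NFL replicates 1 to 3, so the groups did not overlap, and the counts were fractional in part. Its head-to-head partner Col4a4 had 3 to 6 estimated counts a library and was not tested. In the third pair, Col4a5 averaged 6.93 TPM with a log2 fold change of -0.016 (standard error 0.063, edgeR adjusted p = 0.96), which was -0.056 when TNF-α+NFL replicate 1 was omitted and 0.026 when TNF-α+NFL replicate 3 was, and Col4a6 had 1 to 9 counts a library.

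Of the short-chain network chains, Col8a2 (Entrez gene 313592), a type VIII chain, was at 179, 168 and 171 TPM in TNF-α replicates 1 to 3 and 192, 205 and 196 TPM in TNF-α+NFL replicates 1 to 3. The groups did not overlap, and TNF-α replicate 1 was the highest TNF-α library. The log2 fold change was 0.16 (standard error 0.038, edgeR adjusted p = 0.081). Col8a1, the other type VIII chain, was at 588, 494 and 488 TPM in the TNF-α libraries and 537, 596 and 526 TPM in the TNF-α+NFL libraries, with overlapping groups and a log2 fold change of 0.058 (standard error 0.062, edgeR adjusted p = 0.81), which was 0.0093 when TNF-α+NFL replicate 2 was omitted and 0.13 when TNF-α replicate 1 was. Col10a1 had a log2 fold change of 0.26 with a standard error of 0.40, a difference that was not detectable at 6 to 14 counts a library and was -0.063 when TNF-α+NFL replicate 2 was omitted and 0.52 when TNF-α replicate 1 was.

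None of the 3 type VI chains tested, of the pericellular matrix, passed. Col6a1 was at 668, 586 and 602 TPM in TNF-α replicates 1 to 3 and 668, 679 and 678 TPM in TNF-α+NFL replicates 1 to 3, with a log2 fold change of 0.093 (standard error 0.041, edgeR adjusted p = 0.42), and its groups did not overlap, although TNF-α replicate 1 and TNF-α+NFL replicate 1 were nearly equal in TPM. Col6a2 was at 789, 686 and 717 TPM in the TNF-α libraries and 746, 772 and 771 TPM in the TNF-α+NFL libraries, with a log2 fold change of 0.029 (standard error 0.042, edgeR adjusted p = 0.87), which was -0.0046 when TNF-α replicate 2 was omitted and 0.070 when TNF-α replicate 1 was. Col6a3, the long chain of the type VI trimer, was at 25.6, 19.8 and 18.2 TPM in the TNF-α libraries and 18.9, 17.9 and 19.7 TPM in the TNF-α+NFL libraries, and its log2 fold change was -0.21 (standard error 0.13, edgeR adjusted p = 0.66). TNF-α replicate 1 was far above all other libraries in Col6a3, and the log2 fold change ran from -0.062 without it to -0.30 without TNF-α replicate 3. Col6a6 and Col6a4 were not tested, at most 8.51 and 2 estimated counts a library.

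The multiplexin, fibril-associated, anchoring and transmembrane chains held no member past the threshold. Col18a1, the precursor of endostatin, was at 299.7, 261 and 261 TPM in the TNF-α libraries and 305, 307 and 313 TPM in the TNF-α+NFL libraries, with no overlap between the groups and a log2 fold change of 0.14 (standard error 0.044, edgeR adjusted p = 0.23). Col15a1, the related multiplexin, ranged from 456 to 761 counts within the TNF-α group, with fractional counts and TNF-α replicate 1 as the highest library. Its log2 fold change was 0.15 (standard error 0.23, edgeR adjusted p = 0.89) with all libraries and 0.39 (adjusted p = 0.039 in edgeR's test) without TNF-α replicate 1, but -0.012 without TNF-α replicate 3. Among the 7 fibril-associated chains tested, 5 had a fold change above 1, 0 had an unadjusted p under 0.05 in edgeR's test and the median log2 fold change was 0.021. This median fell below 0 when TNF-α replicate 2, TNF-α replicate 3 or TNF-α+NFL replicate 2 was omitted. Col12a1 and Col14a1, which bind fibrils in tendon and cartilage surface, had log2 fold changes of 0.020 (standard error 0.18, edgeR adjusted p = 0.98) and -0.086 (standard error 0.057, edgeR adjusted p = 0.65). With a library left out that of Col12a1 ran from -0.079 (TNF-α replicate 3) to 0.21 (TNF-α replicate 1) and that of Col14a1 from -0.12 (TNF-α replicate 3) to -0.011 (TNF-α replicate 1). Col7a1, the anchoring fibril chain of skin, was the only chain lower at an unadjusted p under 0.05, with 140, 133 and 115 estimated counts in TNF-α replicates 1 to 3 and 91, 127 and 90 in TNF-α+NFL replicates 1 to 3. Its groups overlapped, and the log2 fold change was -0.34 (standard error 0.15, edgeR adjusted p = 0.42), which was -0.52 when TNF-α+NFL replicate 2 was omitted and -0.25 when TNF-α+NFL replicate 3 was. Col9a1 and Col17a1 had groups that did not overlap in normalised counts, although those of Col17a1 overlapped in TPM, at 27 to 42 and 36 to 48 counts a library, with log2 fold changes of 0.41 (standard error 0.20, edgeR adjusted p = 0.49) and 0.26 (standard error 0.18, edgeR adjusted p = 0.66).

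The 11 chains not tested were Col4a4, Col4a6, Col6a4, Col6a6, Col13a1, Col19a1, Col22a1, Col23a1, Col24a1, Col25a1 and Col28a1. Of these, Col6a4, Col13a1, Col19a1, Col25a1 and Col28a1 had 3 or fewer estimated counts in every library, and no fold is given for them. The largest count of any chain not tested was 11.3, of Col23a1 in TNF-α+NFL replicate 3.

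Ratios of partner chains compare levels within a library, so that an effect common to both cancels. Of 10 ratios, 2 had groups that did not overlap, and each reached only an exact permutation p of 0.10 (two-sided, the smallest that 3 against 3 allows) and an adjusted p of 0.40 over the 10. The ratio of Col6a1 to Col6a2 was 0.847, 0.854 and 0.840 in TNF-α replicates 1 to 3 and 0.895, 0.879 and 0.880 in TNF-α+NFL replicates 1 to 3, higher in all TNF-α+NFL libraries, with group means of 0.847 ± 0.00726 (SD, n = 3) and 0.885 ± 0.00913 (SD, n = 3). The ratio of Col6a3 to Col6a1 was 0.0383, 0.0338 and 0.0302 in TNF-α replicates 1 to 3 and 0.0283, 0.0264 and 0.0290 in TNF-α+NFL replicates 1 to 3, lower in all TNF-α+NFL libraries. The group difference of this ratio was -0.28 on the log2 scale and was -0.37 when TNF-α replicate 3 was omitted and -0.20 when TNF-α replicate 1 was. The type VI trimer holds 1 of each of these chains, so in every library the transcripts of Col6a3 were few beside those of its partners.

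The ratio of Col1a1 to Col1a2 was 8.81, 9.44 and 8.80 in TNF-α replicates 1 to 3 and 9.78, 8.66 and 8.65 in TNF-α+NFL replicates 1 to 3, with group means of 9.01 ± 0.364 (SD, n = 3) and 9.03 ± 0.649 (SD, n = 3). The type I trimer holds 2 chains of Col1a1 for 1 of Col1a2, so the deposited levels of the transcripts were far from this proportion in all libraries alike, and in estimated counts the mean ratio was 11.8. The counts of Col1a2 are the fractional ones, and the part of this in the ratio was not tested. The ratio of Col3a1 to Col1a1 was 0.337 ± 0.0280 with TNF-α and 0.317 ± 0.0116 with TNF-α+NFL (SD, n = 3 each), and the groups overlapped. The ratio of Col11a1 to Col5a1, both chains of the fibril core, was 1.88, 2.10 and 2.18 in TNF-α replicates 1 to 3 and 2.27, 2.28 and 2.17 in TNF-α+NFL replicates 1 to 3, with the lowest value in TNF-α replicate 1 and overlapping groups (exact permutation test, two-sided, p = 0.20, adjusted p = 0.40). The group difference on the log2 scale was 0.13, and 0.068 without that library. The ratio of Col5a1 to Col1a1 lay between 0.163 and 0.174 in all libraries, a coefficient of variation of 2.36%, although that of each chain was 10.0% and 8.79%. The ratios of Col5a1 to Col5a2 and of Col8a1 to Col8a2 had their highest values, 0.227 and 3.29, in TNF-α replicate 1. Without it their group differences on the log2 scale went from -0.063 to 0.012 and from -0.11 to -0.050, and that of Col1a1 to Col2a1 from -0.16 to -0.096. That of Col3a1 to Col1a1 was -0.086 and was -0.14 when TNF-α replicate 1 was omitted and -0.024 when TNF-α replicate 2 was.

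The summed TPM of the 41 chains was 0.746%, 0.642% and 0.646% of the library in TNF-α replicates 1 to 3 and 0.727%, 0.762% and 0.738% in TNF-α+NFL replicates 1 to 3. The group values were 0.678% ± 0.0590 (SD, n = 3) and 0.743% ± 0.0178 (SD, n = 3). TNF-α replicate 1 lay among the TNF-α+NFL libraries, and the difference of 0.064 percentage points did not pass (exact permutation test, two-sided, p = 0.30, with 0.10 the smallest possible). It was 0.098 percentage points without TNF-α replicate 1 and from 0.046 to 0.072 with any other library left out. Without Col1a1, Col1a2 and Col3a1, the other 38 chains gave 0.501% ± 0.0394 (SD, n = 3) and 0.556% ± 0.0133 (SD, n = 3), where TNF-α replicate 1 was just below the lowest TNF-α+NFL library and the groups did not overlap (p = 0.10 in the same exact permutation test). This separation rests on 0.5468% in TNF-α replicate 1 against 0.5474% in TNF-α+NFL replicate 1. The subset was not in the plan of tests, and each of the 3 chains left out had overlapping groups.

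**Figure D5:**
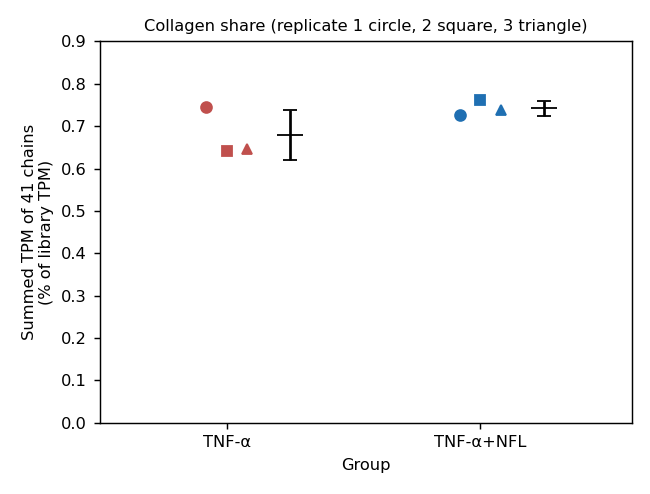
Summed TPM of the 41 collagen chains as a percent of the library TPM, by group, with the axis from 0. Points are libraries (circle, square and triangle for replicates 1, 2 and 3) and bars the mean ± SD of 0.678 ± 0.0590 and 0.743 ± 0.0178. TNF-α replicate 1 lies with the TNF-α+NFL libraries.

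The genes around the chains were followed in lists of collagen assembly, processing, binding and degradation. The enzymes and chaperones that fold and modify chains in the endoplasmic reticulum showed no common direction, and of 19 tested 8 had a fold change above 1, 0 passed an adjusted p of 0.05 and the median log2 fold change was -0.0087. The smallest p among them was that of Plod1, a lysyl hydroxylase, with -0.12 (standard error 0.038, edgeR adjusted p = 0.22). Serpinh1, the collagen chaperone HSP47, was at 969.5 ± 29.4 TPM with TNF-α (SD, n = 3) and 1024 ± 1.68 TPM with TNF-α+NFL (SD, n = 3), with a log2 fold change of 0.046 (standard error 0.038, edgeR adjusted p = 0.72). Of the 10 tested genes that process and crosslink collagen outside the cell, 0 passed, with a median of 0.018, and the smallest p was that of the lysyl oxidase gene Loxl3, with -0.15 (standard error 0.040, edgeR adjusted p = 0.13).

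Collagen receptors held 2 of 8 tested members past the threshold, where 0.408% of all tested genes were called higher, and the median log2 fold change was 0.098. Itgb1, the β1 integrin subunit shared by all collagen-binding integrins, was at 1322 ± 16.2 TPM with TNF-α (SD, n = 3) and 1559 ± 18.9 TPM with TNF-α+NFL (SD, n = 3) and rose with a log2 fold change of 0.20 (standard error 0.037, edgeR adjusted p = 0.028). Its libraries did not overlap between the groups. Itga11, its α11 partner for fibrillar collagen, was at 84.0, 71.8 and 71.2 TPM in the TNF-α libraries and 91.7, 98.1 and 90.2 TPM in the TNF-α+NFL libraries and rose with a log2 fold change of 0.27 (standard error 0.053, edgeR adjusted p = 0.037). Among 5 tested collagen-degrading proteases, Mmp13, the main collagenase of cartilage, fell, with a log2 fold change of -0.31 (standard error 0.050, edgeR adjusted p = 0.017), where 0.204% of all tested genes were called lower, and Mmp2, Mmp9, Mmp14 and Ctsk did not pass. Mmp13 was at 261, 263 and 229 TPM in the TNF-α libraries and 213, 199 and 211 TPM in the TNF-α+NFL libraries, with no overlap. These 3 calls were unstable to leaving out a library: Itgb1 and Itga11 passed in edgeR's test only without TNF-α replicate 1 (adjusted p = 0.00025 and 1.0e-05) and otherwise had adjusted p-values of up to 0.26 and 0.28, and Mmp13 passed only without TNF-α replicate 3 (adjusted p = 0.0077) and otherwise had up to 0.18. Itga11 and Mmp13 also did not pass in limma on log2(TPM + 1) (adjusted p = 0.14 and 0.12). Of the 11 tested fibril-binding matrix proteins 0 passed, and the smallest p was that of Ogn, a small leucine-rich proteoglycan, with 0.16 (standard error 0.044, edgeR adjusted p = 0.16).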

How the data were processed

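RNA-seq libraries of 3 TNF-α and 3 TNF-α+NFL samples, single-end reads of 50 bases, were analysed. The authors deposited estimated counts per gene, not normalized and fractional where reads are shared, and also FPKM values (scaled to length and mapped reads) and TPM values (scaled to length and to a fixed sum). Per the labels, the submitters' processing notes list HISAT2 2.0.4, Bowtie2 2.2.5, RSEM 1.2.12 and Rnor_6.0, with roles and annotation not given in the sources used here.

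Here, the estimated counts were rounded and fitted over all genes in R 4.3.3 with edgeR 4.0.16 (TMM after filterByExpr, robust quasi-likelihood test, two-sided, Benjamini-Hochberg adjustment over 13250 genes), and the code was tested on simulated data. Each standard error is the fold change divided by the square root of its F. limma 3.58.1 and DESeq2 1.42.0 served as alternatives. Levels and ratios used TPM, and FPKM gave transcript lengths. Ratios and shares had an exact permutation test. Chains with 3 or fewer counts in every library were taken as at the floor. Promoter windows are from RefSeq (GRCr8), matched by gene identifier.

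The members and lists were chosen with earlier results of these data known. Values were given per library for chains at an unadjusted p under 0.05 without overlap, for the 10 highest and for partners in a ratio. Same-numbered libraries did not deviate together (correlations 0.030, -0.024 and 0.100), so numbers were not taken as pairs.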

Additional observations from a re-analysis of the deposited data

How the results depend on the processing

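Against 0 collagen chains and 81 genes called at an adjusted p under 0.05, the following counts were found. With no filter on low counts there were 2 chains and 132 genes. With at least 10 counts in every sample there were 2 chains and 95 genes. With DESeq2's size factors there was 1 chain, Col11a1, of 86 genes, and with limma-voom the same chain of 84 genes. The DESeq2 Wald test gave 5 chains and 148 genes, and removal of the trend with transcript length gave 5 chains and 229 genes. Limma on log2(TPM + 1) and on log2(TPM + 0.1) gave 0 chains and 32 genes each. At an adjusted p under 0.10 there were 4 chains and 164 genes, and at 0.01 there were 23 genes. A replicate block on the library numbers gave 0 chains and 34 genes, and the median log2 fold change of the chains was 0.093. Under the block, Itgb1, Itga11 and Mmp13 had adjusted p-values of 0.0997, 0.063 and 0.055 in edgeR's test. Leaving out each library gave 0 to 12 chains, 5 to 930 genes and a median of 0.039 to 0.17, the highest values without TNF-α replicate 1. The cause was not tested.

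The chains with values per library kept their direction under all 15 alternatives, except for Col3a1, Col6a2 and Col1a2. Col3a1 was at 0.017 in both limma fits on TPM and ran from -0.050 to 0.011 with a library left out. With a library left out, Col6a2 ran from -0.0046 to 0.070 and Col1a2 from -0.013 to 0.17. On the log2 scale, the group difference of the ratio ran from -0.058 to 0.034 for Col1a1 to Col1a2, from -0.11 to 0.012 for Col5a1 to Col5a2, from -0.0064 to 0.033 for Col5a1 to Col1a1 and from -0.0020 to 0.0093 for Col4a1 to Col4a2. The collagen share kept its direction in the alternatives run. Estimated counts put it at 1.88% and 2.03% (exact permutation p = 0.20).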

Other observations

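Among the 13 chains with a mean over 100 TPM there are 78 pairs, whose ratio of estimated counts had a median coefficient of variation of 5.23% over the 6 libraries, with a highest value of 10.6%. Col4a1 with Col4a2 had the lowest, at 0.602%, and was 0.734 times what counting error gives. The next was Col5a2 with Col8a2, at 2.01%, or 1.69 times counting error, followed by Col6a1 with Col18a1 at 2.16% and Col1a1 with Col5a1 at 2.18%. Col6a1 with Col6a2, partners of a trimer, had 2.54%, or 2.93 times counting error. The pairs share their libraries and their depth, and this ranking was made after the values had been seen.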
